A study of Mus musculus with 8 samples.

Results

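Eph receptors are receptor tyrosine kinases, and ephrins are the membrane-bound ligands that they meet on neighbouring cells. The 9 genes described here are 6 receptors (Ephb2, Ephb3, Ephb4, Ephb6, Epha2, Epha4) and 3 ligands (Efna1, Efnb1, Efnb2). They were taken by name: every array probe whose gene name is one of these symbols was used, 13 of 41174 probes. All 13 passed the filter on dim probes, and the brightest probe stood for its gene. The study put total RNA of mouse colon on 8 one-colour arrays, 1 array per sample, from 4 samples labelled colon adenoma and 4 labelled normal colon. The mice were C57BL/6, and the protocol gives the distal 2.5 cm of the colon as the source. All mice were labelled heterozygous for Apc (the protocol writes ApcMin), whose protein takes part in the destruction of beta-catenin. The tumors were labelled heterozygous for Tcf4 and the normals wild type for Tcf4. This is an older symbol of Tcf7l2, a DNA-binding partner of beta-catenin at Wnt target genes. Tumor state and Tcf4 genotype therefore cannot be told apart in any comparison. The sample titles call all of them adult, and no exact ages are given. The series describes the samples as independent and calls the mice littermates without saying which samples share a litter.

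An ephrin on one cell that binds an Eph receptor on the next starts signals in both cells, which push the cells apart or hold them together. A-type ephrins are anchored in the membrane by a lipid, and B-type ephrins cross the membrane and signal through a cytoplasmic tail. In the intestine, Ephb2 and Ephb3 are known as Wnt target genes of the crypt base, while Efnb1 and Efnb2 are strongest in the differentiated cells above it, and the opposed gradients keep cell types in their places along the crypt. In blood vessels, Efnb2 marks arteries and Ephb4 veins.

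Values are the authors' log2 table, since scanner files and table columns disagreed on which array belongs to which sample. Of the 8 columns, 4 matched a scanner file exactly (tumors 1 and 2, normals 1 and 2), and only tumor 1 matched the file of its own sample. With the scanner files as filed, limma called 0 of 21671 genes, with 433 at an unadjusted p under 0.05. The scanner files without a column (those filed under normal 1 and tumors 2, 3 and 4) had small intestine marker means of 2.28 to 4.65 on the log2 scale relative to the 75th percentile of each array. The same means were -3.07 to -0.71 in the files that matched a column. In the 8 table columns the mean of the distal colon list was 11.53 to 12.48 and that of the pan-epithelial list 16.62 to 17.54. The mean of the small intestine list was 8.31 to 10.98 there, highest in normal 3 (10.98) and tumor 1 (10.54). The sample labelled normal 3 stood apart from the other normals. Its Pearson correlation over genes was 0.947 to 0.965 with the tumors and 0.872 to 0.941 with the other normals. Its mean over 12 crypt base and Wnt target genes was 12.62. The remaining normals had 11.14 to 11.35, and tumors had 13.08 to 13.72. The correlations of those remaining normals with the tumors were 0.870 to 0.956. Normal 1 reached 0.956 with tumor 4, above its 0.938 to 0.941 with the other normals. The tests of the Eph and ephrin genes are therefore given with and without normal 3. It was singled out from these same values, so calls made without normal 3 are not independent support.

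The comparison asks how tumor tissue differed from normal colon. Of the 9 genes, 3 receptors rose in the tumors (Epha2, Ephb6 and Ephb3), 0 genes fell, and 6 did not pass the test. Over all 21632 genes tested, 14.5% were called and 7.00% were called higher (limma, adjusted p under 0.05). Tumor and normal values did not overlap for 5 of the 9 genes, all receptors and all higher in tumors, against 11.9% of all genes higher without overlap. The median difference was 0.29 over the 9 genes and 0.15 over all genes, on the log2 scale. All 3 ephrins had negative differences and none passed. Counting either direction, 23.8% of all genes had no overlap. Tumor and normal samples with the same replicate number were also treated as pairs. Their Tcf4 labels differ, so by the labels a pair is not tissue of the same mouse. The pairing was read from these same data. With the replicate numbers as pairs, 1 gene was called higher (Ephb3) and 1 lower (Efnb1), while 8.84% of all genes were called, 3.67% higher and 5.17% lower. Without normal 3, 4 were called higher and 2 lower, but 51.5% of all genes were then called, 31.7% higher and 19.8% lower.

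**Figure D1:**
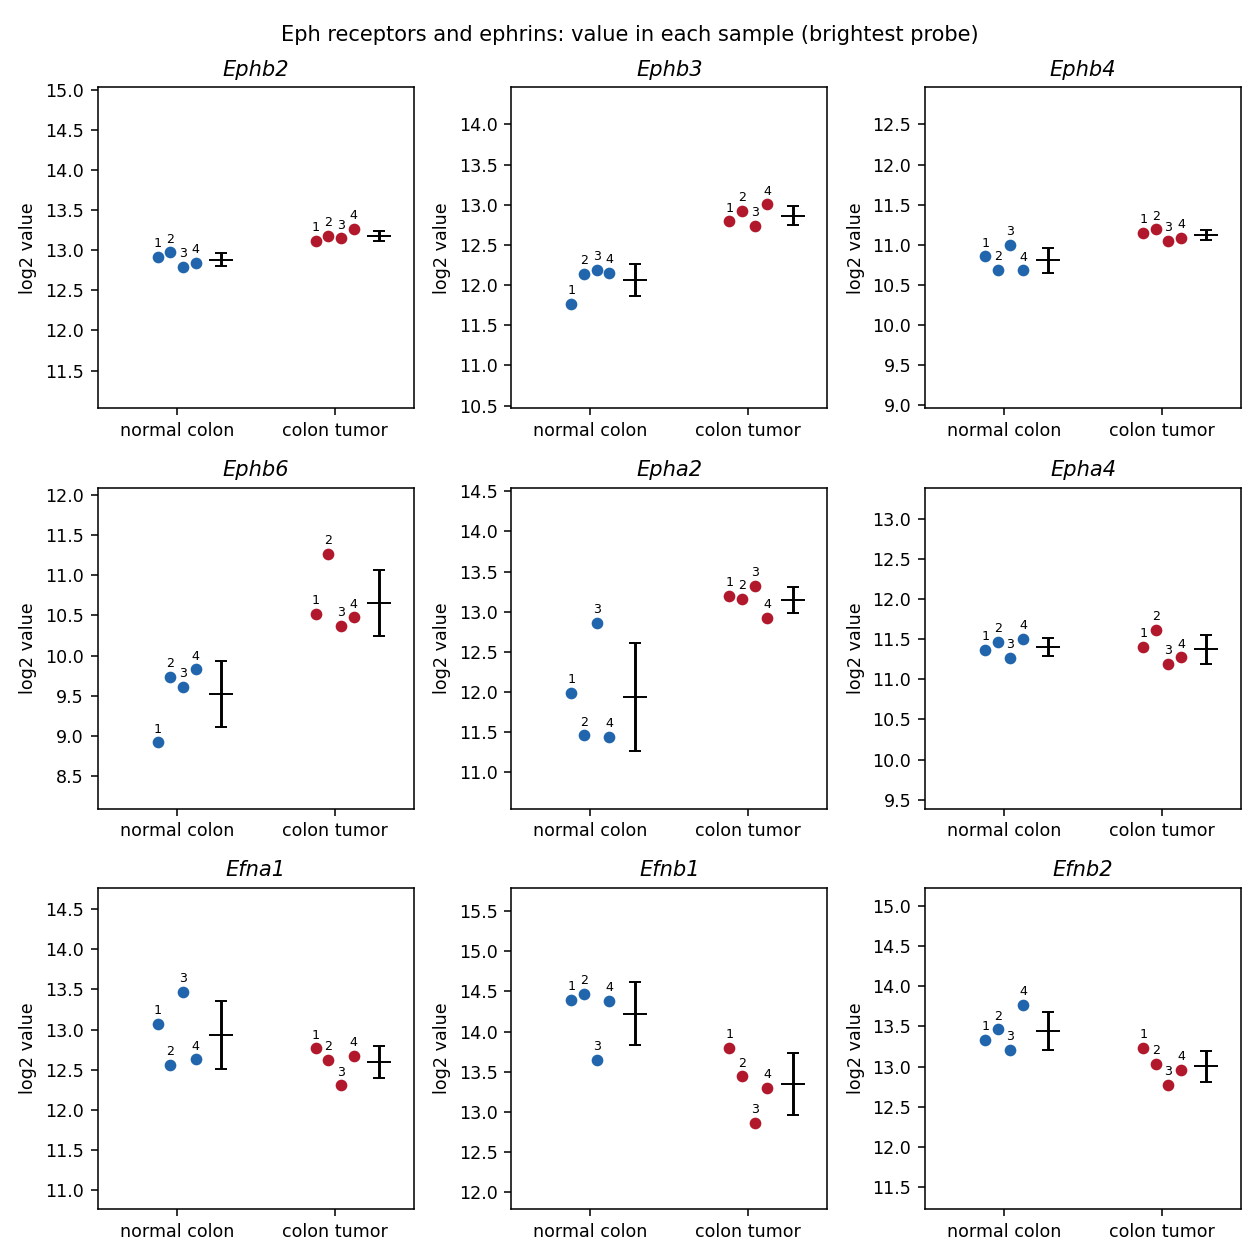
Log2 value of the brightest probe of each gene in the 4 normal colon samples (blue) and 4 colon tumors (red), numbered by replicate, with the group mean and SD in black; each panel spans the same range of log2 units. The groups do not overlap for Ephb2, Ephb3, Ephb4, Ephb6 and Epha2, and normal 3 stands at 12.87 in Epha2, above the other normals.

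Ephb3 and Ephb6 were the B-type receptors that rose. Ephb3 kept its call with the pairs as a block, and Ephb6 narrowly missed. The pairs were read from these same data, so a call kept in the block is not independent support. The Ephb3 values were 12.79, 12.92, 12.74 and 13.00 in tumors 1 to 4 and 11.77, 12.14, 12.19 and 12.15 in normals 1 to 4. Every tumor lay above every normal, and normal 1 lay below the other normals. Ephb3 was 12.86 ± 0.12 in tumors and 12.06 ± 0.20 in normals (SD, n = 4), a rise of 0.80 ± 0.15 (SE) or 1.74-fold (95% confidence interval 1.38 to 2.20; limma adjusted p = 0.0199). The pair differences were 1.03, 0.78, 0.55 and 0.85, all positive as the lack of overlap requires. Pairs 1 and 2 each lie within 1 slide, and the slides of the other columns are not known. The call held with the pairs as a block (adjusted p = 0.0452), without tumor 4 (0.043) and without normal 3 (0.00825). It was lost when any other single sample was left out, at adjusted p of 0.0509 to 0.065 with differences of 0.70 to 0.84. Its probe maps to chromosome 16, 21136935 to 21136994, on mm8; exon annotation of that build was not used here.

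Ephb6, a receptor whose kinase domain lacks catalytic activity, was the B-type receptor with the larger rise. Its values were 10.52, 11.27, 10.37 and 10.48 in tumors 1 to 4 and 8.92, 9.73, 9.61 and 9.83 in normals 1 to 4. Tumor 2 was the highest tumor and normal 1 the lowest normal, and the groups did not overlap. Ephb6 rose from 9.52 ± 0.41 to 10.66 ± 0.41 (SD, n = 4), by 1.13 ± 0.28 (SE) or 2.20-fold (95% confidence interval 1.41 to 3.43; limma adjusted p = 0.0366). The pair differences were 1.60, 1.53, 0.76 and 0.65. The call missed the threshold with the pairs as a block (adjusted p = 0.0521). It was lost without any single sample other than normal 3, at adjusted p of 0.0648 to 0.0833, and was 0.0219 without normal 3. Its probe maps to chromosome 6, 41548872 to 41548931, on mm8.

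Ephb2 and Ephb4 differed by much less. Ephb2, with Ephb3 a main receptor of the crypt base, read 13.11, 13.18, 13.14 and 13.27 in tumors 1 to 4 and 12.92, 12.97, 12.79 and 12.84 in normals 1 to 4. The values barely spread within a group: only 0.892% of all genes had a smaller pooled SD. The groups did not overlap, but the difference was 0.29 ± 0.11 (SE), 1.23-fold with a 95% confidence interval of 1.02 to 1.47, and did not pass (limma adjusted p = 0.119; 0.136 with the block; 0.0961 without normal 3). Ephb4, the receptor known from veins, read 11.15, 11.19, 11.05 and 11.08 in tumors 1 to 4 and 10.85, 10.69, 11.00 and 10.68 in normals 1 to 4. Normal 3 lay 0.05 below tumor 3, the closest approach of the groups. The difference of Ephb4 was 0.31 ± 0.13 (SE), 1.24-fold with a 95% confidence interval of 1.01 to 1.52 (limma adjusted p = 0.133; 0.146 with the block). Without normal 3 it was 0.38 and passed (adjusted p = 0.0364).

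Epha2, a receptor of epithelial cells that binds Efna1, rose most among the 9. Its values were 13.20, 13.16, 13.32 and 12.93 in tumors 1 to 4 and 11.99, 11.46, 12.87 and 11.44 in normals 1 to 4. The tumors lay close together, and normal 3 lay 0.06 below the lowest tumor and well above the other normals. Epha2 rose from 11.94 ± 0.67 to 13.15 ± 0.16 (SD, n = 4), by 1.21 ± 0.32 (SE) or 2.32-fold (95% confidence interval 1.38 to 3.89; limma adjusted p = 0.0452). The pair differences were 1.20, 1.70, 0.45 and 1.49. With the pairs as a block the adjusted p was 0.0519. Without normal 3 the difference was 1.52 with an adjusted p of 0.00265, and without any other single sample the call was lost (0.076 to 0.124). Its probe maps to chromosome 4, 140601300 to 140601359, on mm8. Epha4, which binds ephrins of both types, showed no difference beyond the spread: 11.40, 11.61, 11.20 and 11.27 in tumors and 11.36, 11.47, 11.27 and 11.50 in normals. Its difference was -0.03 with a 95% confidence interval of -0.35 to 0.29 (limma adjusted p = 0.878; -0.07 and 0.685 without normal 3), so a change of either sign beyond 1.28-fold lies outside the interval.

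The ephrins lay on the other side. Efnb1, a ligand of Ephb2 and Ephb3, read 13.80, 13.44, 12.86 and 13.30 in tumors 1 to 4 and 14.39, 14.47, 13.65 and 14.39 in normals 1 to 4. Normal 3 lay apart from the other normals and within the tumor range, below tumor 1, so the groups overlapped. Efnb1 was 13.35 ± 0.39 in tumors and 14.22 ± 0.39 in normals (SD, n = 4), with a difference of -0.87 ± 0.26 (SE), 1.83-fold lower, which missed the threshold (limma adjusted p = 0.0648). The tumor was lower in 4 of 4 pairs, by -0.59, -1.03, -0.79 and -1.08, and with the pairs as a block the difference passed (adjusted p = 0.044). Without normal 3 it was -1.07 (adjusted p = 0.0122). Its probe maps to chromosome X, 95350885 to 95350944, on mm8. Efnb2, the ligand known from arteries, read 13.23, 13.04, 12.78 and 12.96 in tumors 1 to 4 and 13.34, 13.47, 13.21 and 13.77 in normals 1 to 4. Tumor 1 lay 0.02 above normal 3 and was the only tumor to reach into the normal range. The difference of Efnb2 was -0.44 ± 0.17 (SE), 1.36-fold lower (limma adjusted p = 0.118; 0.109 with the block). Without normal 3 it was -0.52 and passed (adjusted p = 0.0388). Efna1, a ligand of Epha2, read 12.77, 12.62, 12.31 and 12.67 in tumors and 13.08, 12.56, 13.47 and 12.63 in normals, with wide overlap. Its difference was -0.34 ± 0.23 (SE; limma adjusted p = 0.283), with a 95% confidence interval of -0.88 to 0.20. Without normal 3 it was -0.16 (adjusted p = 0.484).

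Promoter sequences are shown for the 3 called receptors and for Efnb1, which had the largest difference of the 3 ephrins among the 9 genes, to set their start regions beside one another. They run from 250 bases before the transcription start to 50 after it on the strand of the gene, 5′ to 3′, from RefSeq on GRCm38.p6. Windows were found for all 9 genes. Capitals mark a 7-base TCF/LEF-type motif, searched on both strands as CTTTG followed by A or T and again A or T. The windows are chr16:21204545-21204844 for Ephb3 (plus strand), chr6:41605261-41605560 for Ephb6 (plus), chr4:141300971-141301270 for Epha2 (plus) and chrX:99135811-99136110 for Efnb1 (plus).
Ephb3: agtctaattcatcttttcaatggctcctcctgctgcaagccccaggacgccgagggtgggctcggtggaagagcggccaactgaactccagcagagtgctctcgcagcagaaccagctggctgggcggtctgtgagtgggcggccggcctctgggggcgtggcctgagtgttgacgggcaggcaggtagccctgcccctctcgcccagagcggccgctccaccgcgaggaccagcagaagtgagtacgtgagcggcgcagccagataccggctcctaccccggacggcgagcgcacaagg
Ephb6: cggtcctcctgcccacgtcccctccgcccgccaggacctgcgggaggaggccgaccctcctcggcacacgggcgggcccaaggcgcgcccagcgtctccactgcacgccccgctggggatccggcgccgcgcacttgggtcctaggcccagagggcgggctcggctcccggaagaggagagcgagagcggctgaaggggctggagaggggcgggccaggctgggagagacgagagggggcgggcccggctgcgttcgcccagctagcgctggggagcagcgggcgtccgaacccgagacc
Epha2: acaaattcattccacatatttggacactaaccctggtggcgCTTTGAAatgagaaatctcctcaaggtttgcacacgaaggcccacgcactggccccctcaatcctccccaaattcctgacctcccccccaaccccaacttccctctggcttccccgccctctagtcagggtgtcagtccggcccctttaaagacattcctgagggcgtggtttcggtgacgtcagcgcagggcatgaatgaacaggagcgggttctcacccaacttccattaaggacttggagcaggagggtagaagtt
Efnb1: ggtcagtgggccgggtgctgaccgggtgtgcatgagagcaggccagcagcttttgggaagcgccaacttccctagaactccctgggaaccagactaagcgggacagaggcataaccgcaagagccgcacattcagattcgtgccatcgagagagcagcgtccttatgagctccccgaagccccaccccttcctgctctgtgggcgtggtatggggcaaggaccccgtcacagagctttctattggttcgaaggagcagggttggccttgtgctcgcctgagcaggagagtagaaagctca
Of the 10 windows of the 9 genes (Efna1 has 2), only that of Epha2 holds the motif, as CTTTGAA beginning 209 bases before the start, and 16.9% of all 32851 windows of this length hold at least 1. Windows were found for 12 of the other 13 Eph and ephrin genes, all but Efnb3, and among these the motif was in Efna4 alone, as AACAAAG beginning 177 bases before the start. A match is a run of letters and not a bound site, and a window without one shows only that these letters are not in it. The windows of the 9 genes were rich in G and C, with a median of 64.3% against 52.7% over all windows, and held a median of 20 CG steps against 7.

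For 4 of the genes a second, dimmer probe was read, and it did not always side with the first. The second Ephb2 probe read 5.65, 6.81, 6.39 and 6.69 in tumors 1 to 4 and 7.54, 7.90, 6.40 and 7.83 in normals 1 to 4. It was lower in the tumors, by -1.04 ± 0.40 (SE), where the bright probe was higher by 0.29, and neither passed (limma over probes, adjusted p = 0.12 and 0.133). This probe was well above background on 3 of the 4 traced arrays, and its coordinates span 1398 bases of chromosome 4 (135929637 to 135931034, mm8) where the bright probe spans 60 (135926763 to 135926822). With the mean of both probes the Ephb2 difference was -0.37, so the sign for this gene depends on the probe. The second Ephb4 probe, well above background on 3 of the 4 traced arrays, differed by -0.28 ± 0.30 (SE; adjusted p = 0.487), against 0.31 for the bright one, and the mean of both gave 0.02. The Epha4 probes gave -0.03 and -0.01. The second Efnb2 probe, well above background on all 4 traced arrays, read 7.25, 7.84, 6.63 and 7.89 in tumors and 8.95, 9.23, 7.83 and 9.37 in normals, where only normal 3 reached the tumor range. It was lower in the tumor of 4 of 4 pairs, with a difference of -1.44 ± 0.42 (SE; limma over probes, adjusted p = 0.0585), the same sign as the bright probe and a larger size. Over all probes, 13.4% were called.

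**Figure D2:**
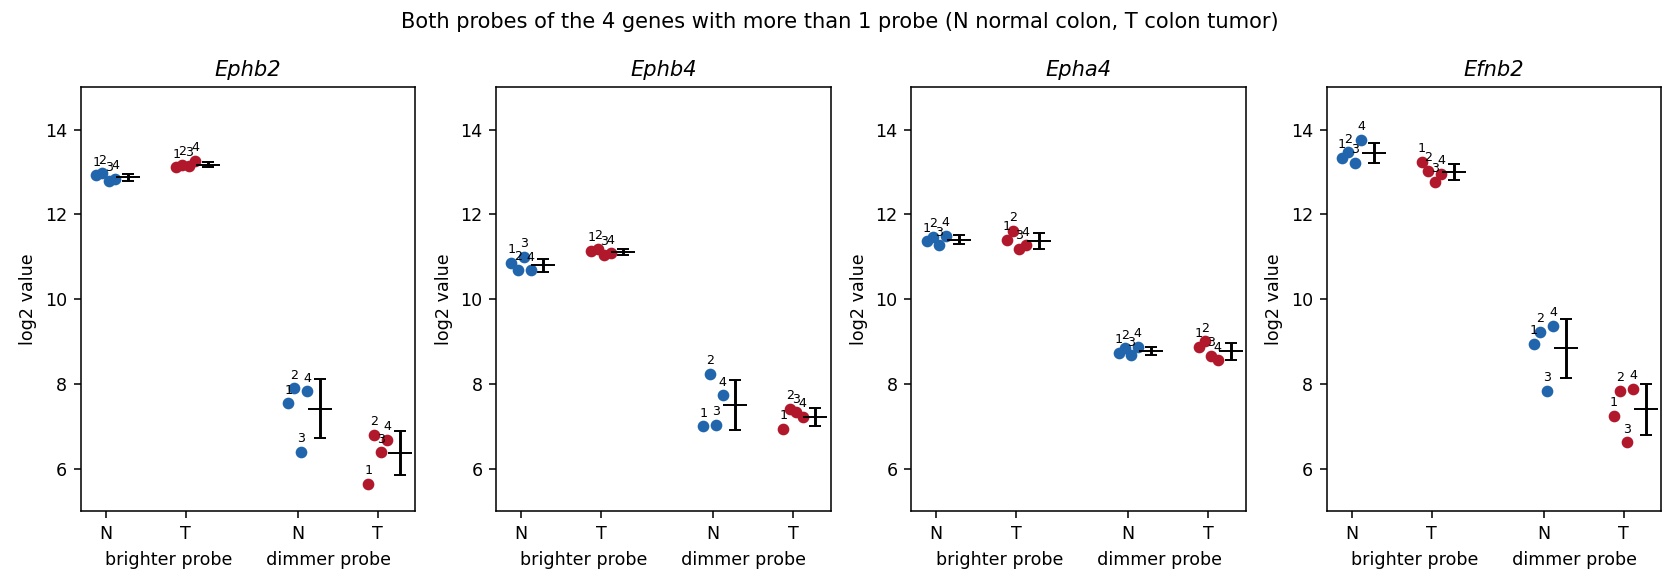
Log2 values of the brighter and the dimmer probe of Ephb2, Ephb4, Epha4 and Efnb2 in 4 normal colon samples (N, blue) and 4 colon tumors (T, red), numbered by replicate, with group mean and SD in black. The dimmer Ephb2 probe runs against the brighter one (-1.04 against 0.29), while both Efnb2 probes are lower in the tumors.

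Of the other 13 Eph receptors and ephrins on the array, 11 had a kept probe and 0 were called (limma, against 14.5% of all genes); Epha10 and Efna2 were too dim. Efna4, a ligand of A-type receptors, read 11.40 to 11.63 in the tumors, 11.48 in normal 3 and 9.23 to 10.31 in normals 1, 2 and 4, a difference of 1.43 ± 0.49 (SE; adjusted p = 0.0889). Normal 3 again lay among the tumors. Epha1, an epithelial receptor, was lower in the tumors without overlap, at 12.89 ± 0.17 against 13.27 ± 0.11 (SD, n = 4; difference -0.38 ± 0.14, adjusted p = 0.0984). Epha8 had the largest difference of the family, 2.18 ± 0.78 (SE; adjusted p = 0.102), but only 1 of 4 normals reached the detection limit of 5.59. Epha3, Epha5, Epha6, Epha7, Ephb1, Efna3, Efna5 and Efnb3 had adjusted p from 0.199 to 0.874 with groups that overlapped. Epha3, Ephb1 and Efna3 had samples under the limit, and Epha6 read 5.59 to 5.68 in normals 1, 2 and 4. A second, dimmer Efna5 probe differed by 1.19 against -0.35 for the brighter one (limma over probes, adjusted p = 0.207 and 0.621). Without normal 3, 5 of the 11 were called higher and 4 lower, where 51.5% of all genes were called.

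**Figure D3:**
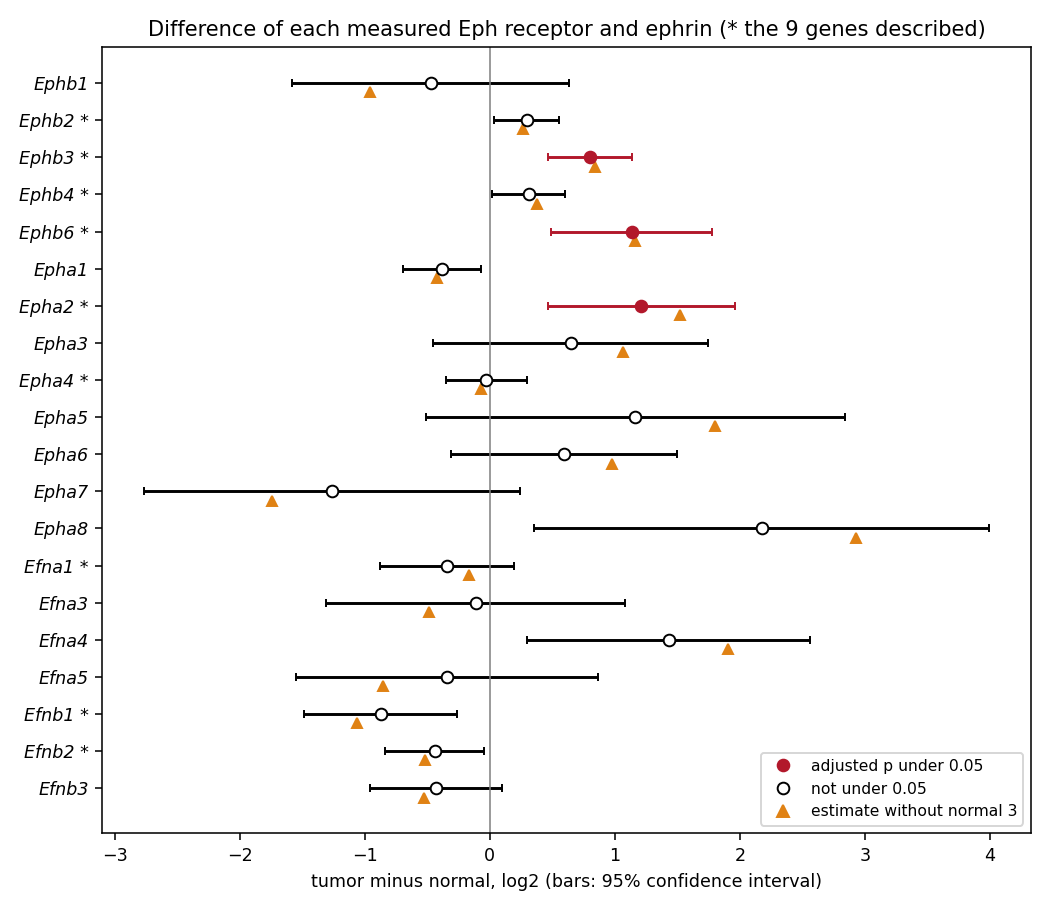
Tumor minus normal difference (log2) of the 20 Eph receptors and ephrins with a kept probe, with 95% confidence intervals from limma; the 9 genes described carry an asterisk. Filled red points passed (Ephb3, Ephb6, Epha2). Triangles give the estimate without normal 3, which is farther from 0 for 18 of the 20. Normal 3 was singled out for its likeness to the tumors, so a shift away from 0 is partly built in. Without it 51.5% of all genes were called.

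A list of 45 genes that act with these receptors was followed in the same fit: adaptors, kinases, exchange factors and GTPase regulators, PDZ proteins and the protease Adam10. Of 44 with a kept probe, 2 rose and 6 fell (limma), 18.2% against 14.5% of all genes, with a median difference of -0.05. Chn2, a GTPase-activating protein for Rac, rose from 10.35 ± 0.32 to 11.78 ± 0.22 (SD, n = 4), by 1.43 (adjusted p = 0.0149; 0.0361 with the block). Sh3kbp1, an adaptor in receptor uptake, rose too, its difference being 0.92 (adjusted p = 0.0448, and 0.0416 in pairs). The genes that fell include 2 exchange factors of the ephexin group, Ngef by 0.80 and Arhgef16 by 0.73 (adjusted p = 0.0436 and 0.0248). The exchange factors Kalrn and Itsn1, which act after B-type receptors in neurons, fell by 0.61 and 0.66 (adjusted p = 0.0423 and 0.0248). Ptpn13, a phosphatase that binds B-type ephrins, fell by 0.83, and Pik3r1, a subunit of PI3 kinase, by 0.79 (adjusted p = 0.027 and 0.0454). With the pairs as a block Arhgef16, Kalrn and Pik3r1 missed the threshold (adjusted p = 0.0519, 0.0668 and 0.053). The block called 8.84% of all genes, and of the 44 it called 2 higher and 4 lower. One of these 4 was gained, Cbl, a ubiquitin ligase that acts on receptor kinases, with a difference of -1.34 ± 0.43 (SE; adjusted p = 0.0772, and 0.0362 with the block). Adam10, which cuts ephrins and their receptors, differed by 0.31 ± 0.30 (SE; adjusted p = 0.444), and the adherens junction gene Cdh1 by -0.49 ± 0.23 (adjusted p = 0.174). The GTPases Rhoa, Rac1 and Cdc42 differed by -0.03, -0.07 and 0.08, with no call. The count was 4 of 44 with the mean of all kept probes, when 2728 of all 21632 genes were called. It was 21 of 44 without normal 3, when 51.5% of all genes were called. It was 0 to 3 without any other single sample, 0 without tumor 3 or normal 4, when 21 to 1863 of all genes were called.

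**Figure D4:**
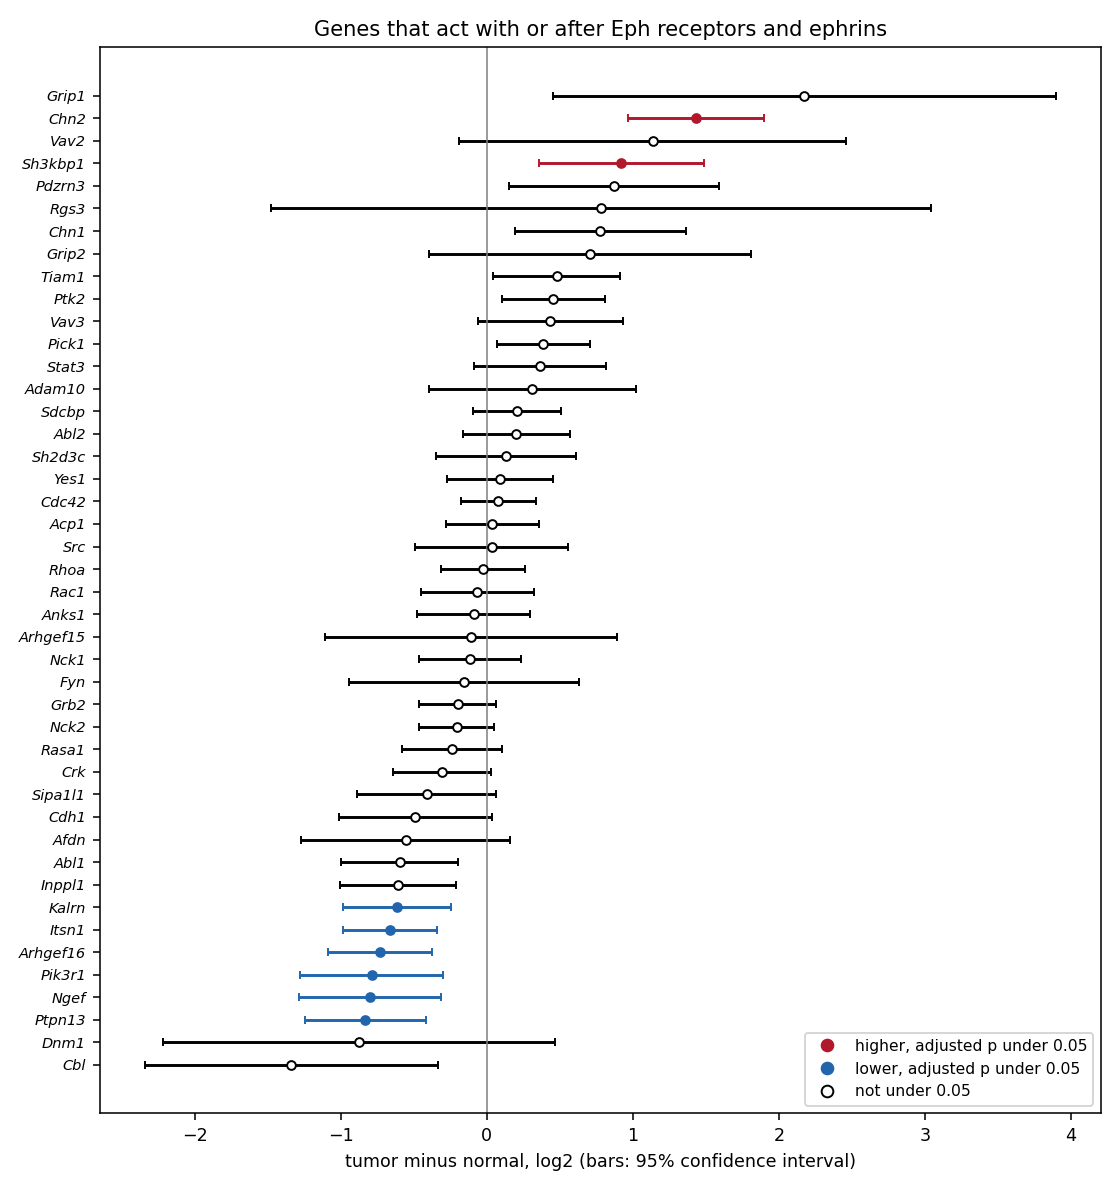
Tumor minus normal difference (log2) of the 44 genes that act with or after Eph receptors and ephrins, ordered by size, with 95% confidence intervals from limma. Red marks the 2 that rose (Chn2, Sh3kbp1) and blue the 6 that fell.

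The genes whose values over the 8 samples lay nearest to each member, after each gene was centred on its mean, were found by root mean square difference in log2 units. They were Itgav for Ephb3 (0.071), Nlgn2 for Ephb6 (0.133), Ccne1 for Epha2 (0.064), Wfs1 for Ephb2 (0.056) and Sf3b6 for Ephb4 (0.039). For Epha4 the nearest was Birc2 (0.050), for Efna1 Zfp865 (0.116), for Efnb1 Nxt2 (0.117) and for Efnb2 Cdip1 (0.061). Among the 9 genes themselves, Ephb2 and Ephb4 lay nearest to each other (0.141), Efnb1 and Efnb2 were 0.309 apart, and Epha2 and Efnb1 were farthest apart (1.25). These distances describe 8 samples and carry no test. Values were not scaled, so genes that vary little lie near each other, and genes with large opposite differences lie far apart.

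The samples were whole tissue, so fewer cells of a type and less RNA per cell cannot be told apart. Marker lists were read beside these genes, in the same fit that called 14.5% of all genes. Of 12 crypt base and Wnt target genes, 10 rose and 0 fell, and of 10 mature colonocyte markers, 0 rose and 7 fell, with list means of 12.74 to 14.26 in tumors and 15.59 to 15.81 in normals. Of 10 pan-epithelial genes, 3 fell and 0 rose, with list means of 16.62 to 16.97 in tumors and 17.05 to 17.54 in normals. Of 12 endothelial markers, 3 rose and 0 fell, with list means of 10.71 to 11.15 in tumors and 9.86 to 10.80 in normals. Of 10 neutrophil and macrophage markers, 6 rose, with list means of 11.66 to 12.12 in tumors and 9.09 to 10.20 in normals. Of 10 fibroblast markers, 1 rose, with list means of 13.12 to 14.09 in tumors and 11.46 to 13.95 in normals. Every gene of these lists had a kept probe. Of 8 arterial markers, which include Efnb2, 2 rose and 1 fell, and of 5 venous markers, which include Ephb4, 1 rose and 0 fell. Of 7 T and B cell markers 3 rose, of 7 Paneth and deep crypt secretory markers 2 rose, and of 7 distal colon markers 4 fell. Of 10 small intestine markers 1 fell. None of 6 smooth muscle or 7 enteric glia and neuron markers was called. With the pairs as a block, which called 8.84% of all genes, 4 crypt base genes rose, 5 colonocyte markers fell, and no pan-epithelial gene was called. In the block 2 endothelial, 6 neutrophil and macrophage, 1 fibroblast, 2 T and B cell and 1 Paneth and deep crypt markers rose, 2 distal colon markers fell, 1 arterial marker fell, and no venous or small intestine marker was called. Without normal 3, when 51.5% of all genes were called, 12 crypt base genes rose and 9 colonocyte markers fell, 1 pan-epithelial gene rose and 6 fell, and 5 endothelial markers rose and 2 fell. In that fit 8 neutrophil and macrophage markers rose, 2 fibroblast markers rose and 1 fell, 2 smooth muscle markers fell, and 2 enteric markers rose and 3 fell. Their part in the differences of the Eph and ephrin genes was not tested.

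**Figure D5:**
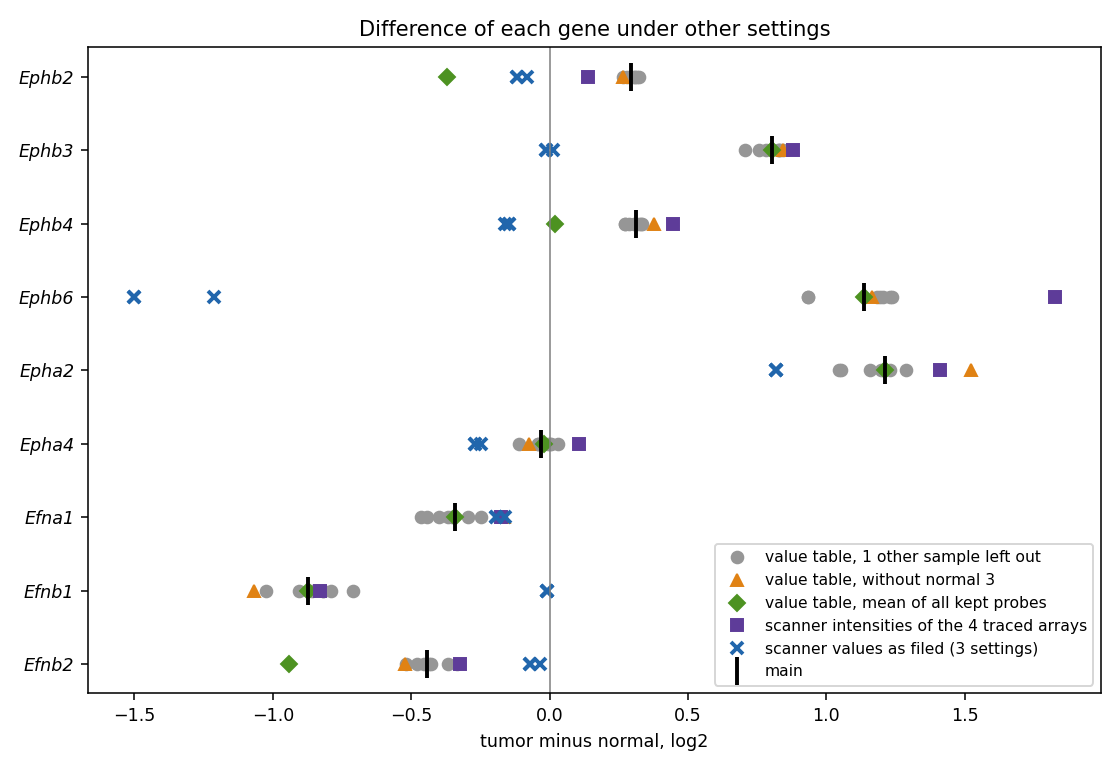
Tumor minus normal difference (log2) of each of the 9 genes as reported (black bar), with 1 sample left out, with all kept probes averaged, in scanner intensities of the 4 traced arrays, and in scanner values as filed. Estimates from the value table and from the traced arrays lie on the same side of 0 for every gene but Ephb2 and Epha4. Scanner values as filed put Ephb6 at -1.50 to -1.21, Ephb2 and Ephb4 below 0, and Ephb3, Efnb1 and Efnb2 near 0.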

How the data were processed

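Per the file headers, scanner files hold spot intensity values extracted with Agilent Feature Extraction 9.5.1.1 (array design 014868, coordinates on mm8), background-subtracted and detrended, together with 0/1 flags of the software as another kind of value deposited; the submitters' processing notes name version 10.1.1.1. The table deposited by the authors holds values on a log2 scale, read from slopes of 0.891 to 1.06 against log2 scanner intensity in 4 traced columns. Its columns share a median of 8.51 and a 75th percentile of 11.40, as after quantile normalisation, a step for which no label or header names a method. A probe was kept when at or above 5.59 in at least 4 samples, the median of a limit set in each traced column so that 95% of probes marked as near background fall under it (4.50 in tumor 1 to 7.71 in normal 1), which left 31866 probes. The limit is lenient for normal 1. The brightest kept probe stood for a gene. Symbols came from RefSeq accessions (24488 probes), symbols (6240) or synonyms (2385) of GRCm38.p6, and 8061 probes kept the name in the file. Tests used lmFit and eBayes of limma 3.58.1 (two-sided, R 4.3.3), adjusted by Benjamini-Hochberg over 21632 genes with a threshold of 0.05. The fit was also run on simulated data with independent samples and shifts larger than those of the 9 genes. That run does not show how the fit performs on samples like these. With 4 arrays a group, the number of arrays limits the precision. P-values set each group difference against the spread between these samples, with variance shared across genes. Which samples share a litter is not known.

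Same-numbered tumor and normal samples deviated together from their group means (correlation over genes 0.237 to 0.534 in 4 pairs, against -0.506 to 0.379 between different numbers). The replicate number was used as a pair, but the match is partial. Tumor 1 correlated more with normal 3 (0.277) than with normal 1 (0.237), and tumor 4 more with normal 2 (0.379) than with normal 4 (0.362). Deviations from a group mean cancel within the group, so part of this contrast is built in. The block results rest on a pairing read from these same data. The numbers come from the sample titles, which do not say what they mark. By the Tcf4 labels, a tumor and a normal of the same number come from different mice. The members and lists were chosen with earlier results of these data known. Named were the 9 genes, the rest of the family, the called pathway genes (up to 8 by p) and the nearest genes. Alternatives were the pair block, other filters, mean of probes, variance trend, centring, scanner values and each sample left out.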

Additional observations from a re-analysis of the deposited data

Results flagged for a closer look

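In 3 of 26 groups of 4 values (13 probes, tumor and normal), 1 sample lay far from the rest by Dixon's test, which chance does in about 1 of 20 groups. Ephb3 in normal 1 was 11.77, with the other normals at 12.14 to 12.19. Ephb6 in tumor 2 was 11.27, with the other tumors at 10.37 to 10.52. Efnb1 in normal 3 was 13.65, with the other normals at 14.39 to 14.47.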

How the results depend on the processing

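Of 171 recomputed differences of the 9 genes, 119 kept their direction and side of the threshold, and of 53 recomputed counts, 16 stayed within 1.5 times the reported count. The cause of the changes was not tested. With the pairs as a block, Ephb6 (1.13, adjusted p = 0.0521) and Epha2 (1.21, adjusted p = 0.0519) lost their calls, Efnb1 (-0.87) gained one, and 1913 of all genes were called, against 3147. No other call of the 9 genes changed with the block. Efnb1 (-0.87) also passed with the limit reached on all 8 samples and with a variance trend, and Epha2 (1.21) missed without a filter. With the mean of kept probes Ephb2 turned to -0.37, and 4 of 44 pathway genes were called, beside 2728 of all 21632 genes. Without a filter 4 of 45 pathway genes were called, beside 2368 of all 27590 genes. In the 4 traced arrays (2 against 2 samples), Ephb3 (0.88), Ephb6 (1.83) and Epha2 (1.41) did not pass, Epha4 turned to 0.11, and 0 genes were called by limma, with 4121 at an unadjusted p under 0.05. Scanner values as filed called 0 genes, 0 of the 9 and 0 of the pathway by limma under each of 3 settings, with 433, 510 and 326 genes at an unadjusted p under 0.05. At the 75th percentile, with or without a slide block, they gave -0.12 for Ephb2, -0.0136 for Ephb3, -0.15 for Ephb4, -1.50 for Ephb6, 0.82 for Epha2, -0.27 for Epha4, -0.19 for Efna1, -0.0084 for Efnb1 and -0.07 for Efnb2. With normexp these were -0.0829, 0.0125, -0.16, -1.21, 0.82, -0.25, -0.16, -0.0093 and -0.03. In all of these as-filed settings the files high in small intestine markers stood under tumors 2, 3 and 4 and normal 1. The groups were thus unbalanced in such files, and these values are not estimates of the same comparison. Leaving out 1 sample gave 0.70 to 0.84 for Ephb3, 0.93 to 1.24 for Ephb6, 1.04 to 1.52 for Epha2, 0.26 to 0.32 for Ephb2, 0.27 to 0.38 for Ephb4, -0.11 to 0.0286 for Epha4, -1.07 to -0.71 for Efnb1, -0.52 to -0.34 for Efnb2 and -0.47 to -0.16 for Efna1. Counts then ran from 0 to 6 of the 9 genes, 0 to 21 pathway genes and 21 (without tumor 3) to 11136 (without normal 3) of all genes. Values near the limit are least certain in normal 1.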

Other observations

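The scanner files that match no table column entered only the alternatives that used the scanner values as filed. Relative to the 75th percentile of each array (log2), they read -4.87 to -3.61 for Ephb6, below the -2.79 to -0.13 of the files that match a column. Ephb4 read -1.02 to -0.85 against -0.74 to -0.21, and Epha4 -0.67 to -0.27 against -0.04 to 0.25, also without overlap. For Ephb2, Ephb3, Epha2, Efna1, Efnb1 and Efnb2 the ranges overlapped.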
